A study of Arabidopsis thaliana with 14 samples.

Results

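Jasmonate synthesis and response genes were followed in roots of Arabidopsis thaliana mutants of the THO/TREX complex, which couples transcription with processing and export of mRNA. The set comprised 10 genes, taken by their gene identifiers from the 33602 genes counted in each library: LOX2 (AT3G45140), AOS (AT5G42650), AOC1 (AT3G25760), AOC2 (AT3G25770) and OPR3 (AT2G06050) for synthesis, MYC2 (AT1G32640), JAZ1 (AT1G19180) and JAZ10 (AT5G13220) for signalling, and VSP1 (AT5G24780) and VSP2 (AT5G24770) for the response. All 10 had an entry in each of the 14 libraries, with 0 reads only for LOX2 in 1 of them, and none had an entry among the separately counted regions downstream of annotated genes.

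Jasmonates are lipid-derived hormones made when tissue is wounded, touched or attacked, and they also restrain root growth. Lipoxygenase, allene oxide synthase and allene oxide cyclase turn linolenic acid into OPDA in the plastid, and OPDA reductase reduces it in the peroxisome before conversion to jasmonic acid. The conjugate jasmonoyl-isoleucine brings JAZ repressors to the COI1 receptor for destruction, which frees MYC2 and related transcription factors. These factors then switch on response genes such as VSP1 and VSP2, the classical markers of the wound branch, together with JAZ and synthesis genes.

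In the pot experiment, roots of 3 weeks old plants came from pho1-7tex1-4, pho1-7hpr1-5, pho1-7 and Col-0, with 2 samples each and single end libraries. On plates, roots of 10 day old seedlings came from tex1-4 and Col-0, with 3 samples each and paired end libraries. All lines were in the Col-0 background. The pho1-7 line carries a T-DNA in PHO1, the exporter that loads phosphate into the xylem, with loss of exon 2, and both double mutants carry it too. TEX1 and HPR1 are subunits of the THO core, and tex1-4 and the hpr1 allele are T-DNA insertions, each studied as a single line (the labels write hpr1-5, the study's text hpr1-6). The study's text also gives a shorter growth time for the plates than the labels, whose age is used here. No agent was added. Growth substrate, plant age and library type cannot be told apart between pots and plates. Each comparison within an experiment asked whether loss of a THO subunit, or of PHO1 function, altered the RNA of these genes.

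Libraries held 56068761 to 110039106 reads assigned to genes. Levels are given as CPM, the reads of a gene scaled to the total of gene reads in its library. TEX1 was at 0.706 to 1.03 CPM in pho1-7tex1-4 against 12.4 to 14.02 CPM in pho1-7, and at 2.15 to 2.67 CPM in tex1-4 against 14.04 to 14.8 CPM in Col-0 on plates. HPR1 was at 11.5 to 12.6 CPM in pho1-7hpr1-5 against 33.8 to 37.0 CPM in pho1-7. PHO1 was at 192 to 200 CPM in pho1-7 against 957 to 1022 CPM in Col-0 in pots, so each mutated gene was low where its label said. All 10 root markers were detected in all 14 libraries. One library stood apart: Col-0 on plates, replicate 2, differed from the other Col-0 plate libraries with a chi-square per degree of freedom of 132 and 106, where other replicate pairs gave 12.7 to 46.1. Summed CPM of 9 touch and early wound genes was 283 in that library, and 152 and 159 in the other Col-0 plate libraries. Values of the 10 genes on plates are therefore also given without it where they move, with tests only for changes at an unadjusted p under 0.05 in edgeR.

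The genes are spread over chromosomes 1, 2, 3 and 5 (RefSeq annotation, TAIR10.1 assembly). AOC1 (chromosome 3, 9403779 to 9405338) and AOC2 (9406669 to 9408071) are neighbours on the plus strand, and VSP1 (chromosome 5, 8507590 to 8509201) and VSP2 (8500468 to 8502224) lie close together on the minus strand. Such copies can share reads, which the counting leaves out where they map to more than 1 place. Of all 50-base stretches of the transcripts, 2.102% in AOC1, 0.374% in VSP1, 0.33% in VSP2 and 0.08% in AOC2 recurred elsewhere, and none did in the other 6 genes, so each copy was counted almost wholly from its own sequence.

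MYC2 is known to bind the G-box, CACGTG, and the variant CACATG, which reads CATGTG on the other strand. In windows from 250 bases before to 50 bases after each RefSeq gene start, both strands searched, CACGTG was found in 1 of the 10 genes, AOS, and in 7.68% of 27443 promoters. The variant was found in 2 of the 10, LOX2 and JAZ10, and in 12.91% of promoters. The 3 matches are printed 5′ to 3′ on the strand of the gene, with the motif in capitals, because no other of the 10 genes has either motif in its window. They lie at chr3:16525136-16525165 (plus strand) for LOX2, chr5:17099584-17099613 (minus strand) for AOS and chr5:4218709-4218738 (plus strand) for JAZ10.
LOX2: cctcctatgcatCACATGcaatatcgggta
AOS: aaagagtcaaagCACGTGgctaaatgaatc
JAZ10: taagaatttaaaCATGTGttttgaatcatt
A match is only a description of these letters. All 3 matches lie before the annotated start, with the first base of the motif at -6 for AOS, -97 for LOX2 and -65 for JAZ10.

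Levels of the 10 genes spanned a wide range. In Col-0 roots from pots, per kilobase of exon, JAZ1 averaged 44.1 ± 7.0 and MYC2 42.0 ± 4.5 CPM per kb (SD, n = 2 each), an order within their spread. AOS followed at 23.0 ± 2.1, VSP2 at 13.9 ± 4.8, OPR3 at 10.4 ± 0.32 and VSP1 at 7.42 ± 0.98 CPM per kb, and VSP2 and OPR3 did not differ beyond their spread. JAZ10 was at 0.959 ± 0.18, AOC2 at 0.241 ± 0.013, AOC1 at 0.0558 ± 0.029 and LOX2 at 0.0113 ± 0.0037 CPM per kb. LOX2, the wound lipoxygenase of leaves, AOC1 and AOC2 were thus the 3 rarest RNAs of the 10 genes in Col-0 in pots. This does not hold for their enzyme families, which have members outside the 10 genes. Mean levels there were 74.65 CPM for AOC3, 70.09 CPM for AOC4 and 48.96 CPM for LOX6. LOX3 and LOX4 were low, at 0.206 and 1.109 CPM. In the same unit AOC2 was at 0.313, AOC1 at 0.0664 and LOX2 at 0.0367 CPM.

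On plates the order in Col-0 was different. VSP1 led at 78.7 ± 14.5 CPM per kb (SD, n = 3), above JAZ1 at 31.1 ± 2.3, VSP2 at 23.3 ± 7.6 and MYC2 at 22.2 ± 0.71 CPM per kb, of which VSP2 and MYC2 did not differ beyond their spread. AOC2 was at 4.37 ± 0.10 CPM per kb, and JAZ10 at 0.649 ± 0.21, AOC1 at 0.166 ± 0.070 and LOX2 at 0.0173 ± 0.0092 CPM per kb were the 3 lowest. AOC2 gave 5.58, 5.64 and 5.84 CPM in Col-0 on plates and 0.171 to 0.453 CPM in every pot library, and VSP1 gave 83.5 to 121 CPM in Col-0 on plates and 8.997 and 10.8 CPM in Col-0 in pots. These are levels side by side from separate experiments, and no test was made between them. In whole roots, a lower level can reflect fewer cells that express a gene or less of its RNA per cell, and these cannot be told apart.

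**Figure D1:**
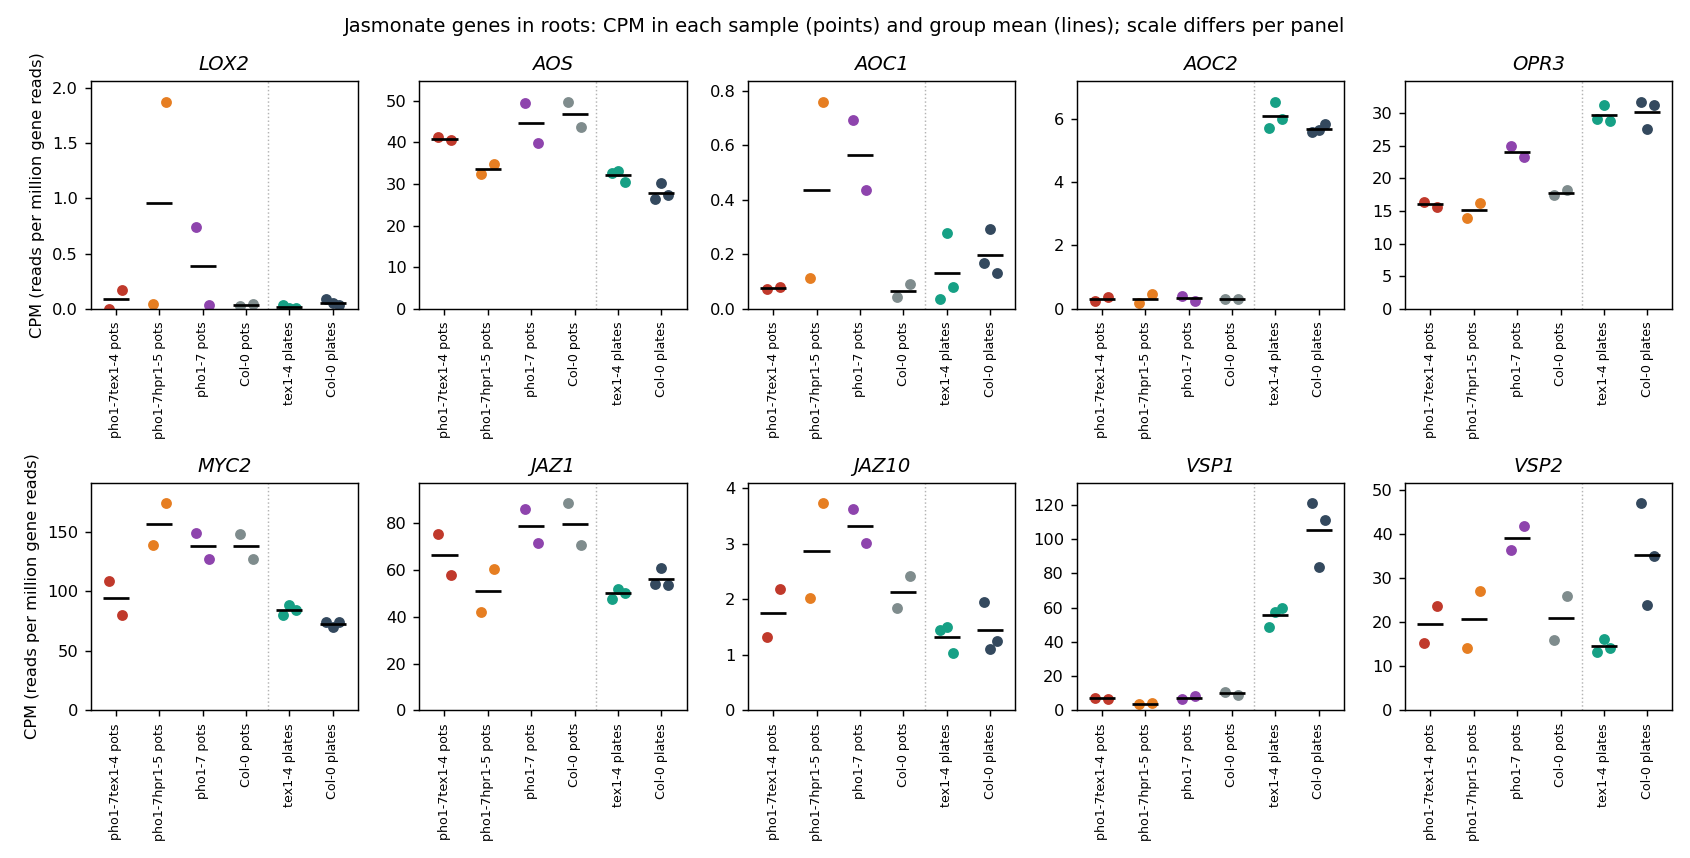
CPM of each of the 10 genes (linear axis from 0, scale set per panel) in every library, with pot groups left and plate groups right of the dotted line; points are samples and lines are group means. OPR3 in pho1-7 (23.3 and 24.9 CPM) stands above the other pot libraries, and VSP1 and VSP2 on plates are lower in all tex1-4 samples than in all Col-0 samples.

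A gene was taken to pass the test at an adjusted p under 0.1 in edgeR's quasi-likelihood test, and to be called where it also changed over 2-fold, and "rose" and "fell" are used for passing. The comparisons share samples: pho1-7 stands in 3 of them and pot-grown Col-0 in 3, so they are not independent of each other. In pots AOC1 and LOX2 passed the filter on low counts through 3 high libraries each, so a call of theirs is a description and nothing is read from its share; counts are therefore also given for the other 8 genes, with no test. In pho1-7 against Col-0, AOC1 was called higher (0.578% of all 21972 genes tested were), and 0 were called lower, where 1.29% of all genes were (1 was lower at an unadjusted p under 0.05, and DESeq2 called 1 higher and 0 lower). At any fold, 2 of 10 passed higher and 1 lower (5.43% and 8.16% of all genes). Of the other 8 genes, 1 rose and 1 fell, and their median log2 fold change was 0.0045, against 0.01 over all genes.

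In each double mutant against pho1-7, 5 of these genes passed the test, and those that passed were lower in the double mutant. In pho1-7tex1-4 against pho1-7, 5 of 10 genes fell and 0 rose, where 21.9% of all genes fell and 24.5% rose. AOC1 was called lower (2.88% of all genes were), and 0 were called higher (2.13% of all genes), with 0 higher at an unadjusted p under 0.05 and 0 by DESeq2. In pho1-7hpr1-5 against pho1-7, again 5 of 10 fell and 0 rose, where 20.0% of all genes fell and 21.2% rose. None was called either way in that comparison (2.73% of all genes were called higher and 2.46% lower), while 5 of 10 had an unadjusted p under 0.05 in edgeR and DESeq2 also called 0. Of the 8 genes other than AOC1 and LOX2, 4 fell in pho1-7tex1-4 and 5 in pho1-7hpr1-5, and their median log2 fold change was -0.39 and -0.50, against 0.02 and 0.01 over all genes tested. The genes that fell were AOC1, OPR3, MYC2, JAZ10 and VSP2 in pho1-7tex1-4, and AOS, OPR3, JAZ1, VSP1 and VSP2 in pho1-7hpr1-5, both set against the same pho1-7 samples.

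Against Col-0, pho1-7tex1-4 had 2 of 10 genes lower, MYC2 and VSP1, and 0 higher (27.5% and 28.3% of all genes), and 0 were called, where 2.11% of all genes were called higher and 3.82% lower (at an unadjusted p under 0.05, 0 were higher and 2 lower, and DESeq2 called 0). In pho1-7hpr1-5 against Col-0, LOX2 and AOC1 were called higher (3.12% of all genes) and VSP1 lower (3.81%), and in all 2 rose and 4 fell (25.5% and 26.0% of all genes). LOX2 and AOC1 were the 2 that rose, and the 4 that fell were among the other 8 genes. As both passed the filter on low counts only through 3 high libraries each, nothing is read from the share beside their calls. Between the double mutants, pho1-7hpr1-5 against pho1-7tex1-4, AOC1 was called higher (2.82% of all genes) and 0 lower (1.27%; 2 at an unadjusted p under 0.05 and 0 by DESeq2), and in all 2 rose, AOC1 and MYC2, and 2 fell (17.5% and 19.3%). On plates, VSP2 was called lower in tex1-4, 1 of 9 genes tested where 3.09% of 21772 genes were called lower, and 0 were called higher (2.33%; 1 at an unadjusted p under 0.05 and 0 by DESeq2). At any fold, 1 rose and 2 fell on plates (17.8% and 19.3% of all genes), and LOX2 was too low to be tested.

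**Figure D2:**
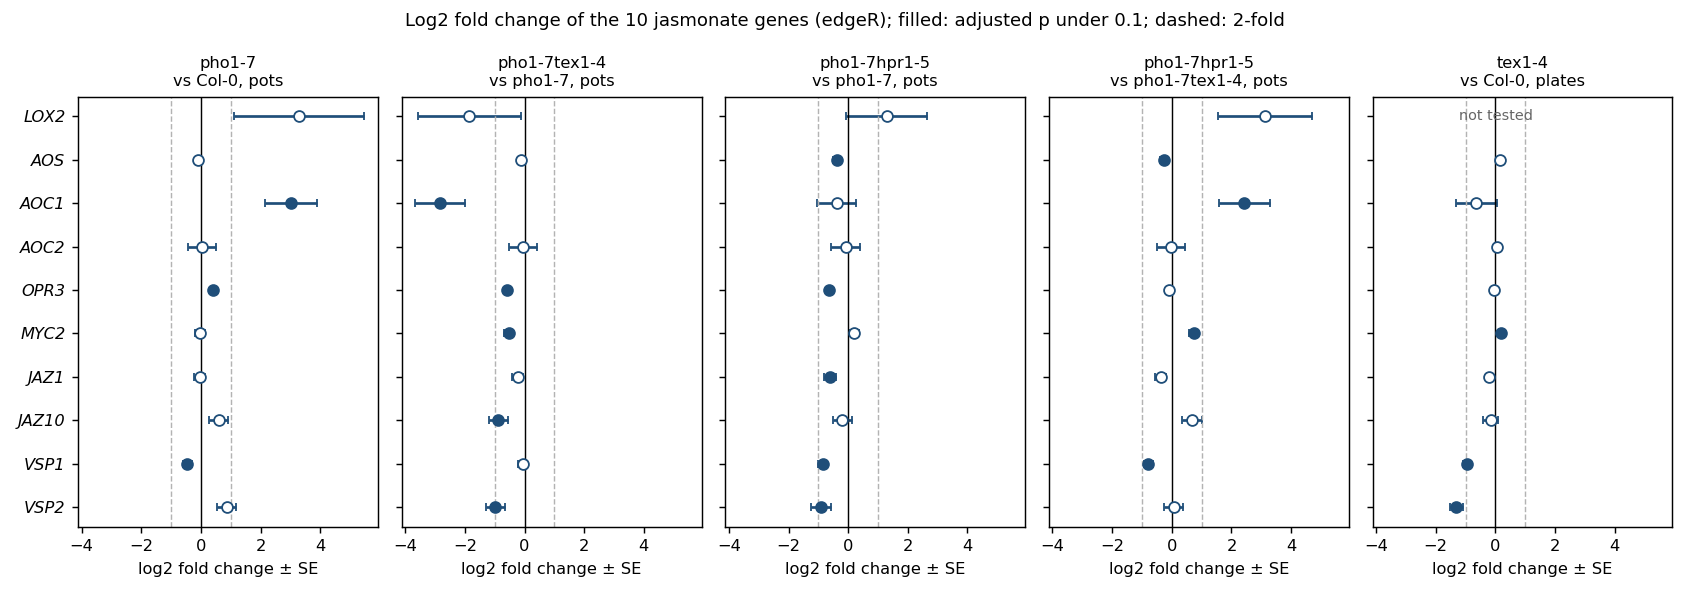
Log2 fold change with its standard error (edgeR) of each gene in 5 comparisons, the mutant named first over the line named after "vs". Filled points passed at an adjusted p under 0.1 and dashed lines mark 2-fold. The wide bars belong to LOX2 and AOC1, the rarest RNAs, and OPR3 and VSP2 lie left of 0 in each double mutant against pho1-7, whose samples those comparisons share.

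OPR3, the peroxisomal OPDA reductase, set pho1-7 apart from every other pot group. It gave 16.4 and 15.7 CPM in pho1-7tex1-4, 13.9 and 16.2 CPM in pho1-7hpr1-5, 24.9 and 23.3 CPM in pho1-7, and 17.4 and 18.2 CPM in Col-0. Both pho1-7 samples were above all 6 other pot samples, and both double mutants were below Col-0 in each sample. Its RNA rose by 0.40 (log2) in pho1-7 against Col-0 (SE 0.08, adjusted p = 0.0271 in edgeR), although without either Col-0 sample the adjusted p went up to as much as 0.152. It fell by 0.58 in pho1-7tex1-4 against pho1-7 (SE 0.08, adjusted p = 0.00213) and by 0.66 in pho1-7hpr1-5 against pho1-7 (SE 0.08, adjusted p = 0.00102).

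Those falls against pho1-7 passed in edgeR with any 1 sample left out, with adjusted p of 0.0187 at most for pho1-7tex1-4 and 0.00718 at most for pho1-7hpr1-5. Against Col-0, OPR3 fell by 0.25 (log2) in pho1-7hpr1-5 (SE 0.08, adjusted p = 0.0373), a change that no longer passed without pho1-7hpr1-5 replicate 1 or Col-0 replicate 2, where adjusted p reached 0.188. In pho1-7tex1-4 against Col-0 it did not pass (adjusted p = 0.118). On plates, tex1-4 had 29.1, 31.2 and 28.8 CPM and Col-0 31.8, 27.6 and 31.3 CPM of OPR3. The plate groups overlapped, but only through Col-0 replicate 2 (27.6 CPM), the library that stood apart. The other Col-0 samples were above all tex1-4 samples, narrowly (31.3 against 31.2 CPM), and no test is given without that library.

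AOS, the single-exon gene of allene oxide synthase that commits the pathway to jasmonate, was lower in pho1-7hpr1-5. AOS gave 41.3 and 40.5 CPM in pho1-7tex1-4, 32.5 and 34.9 CPM in pho1-7hpr1-5, 49.4 and 39.9 CPM in pho1-7, and 49.8 and 43.7 CPM in Col-0. Both pho1-7hpr1-5 samples were below all 6 other pot samples. It fell by 0.49 (log2) in pho1-7hpr1-5 against Col-0 (SE 0.11, adjusted p = 0.00847 in edgeR), which passed with any 1 sample left out, and by 0.39 against pho1-7 (SE 0.11, adjusted p = 0.0276), which without pho1-7 replicate 1 had an adjusted p of 0.112. Against pho1-7tex1-4 the fall of 0.27 (SE 0.11, adjusted p = 0.0948) passed in no fit with a sample left out. On plates AOS gave 32.6, 33.2 and 30.5 CPM in tex1-4 against 26.4, 30.2 and 27.3 CPM in Col-0. All tex1-4 samples were above all Col-0 samples there, but the difference did not pass (adjusted p = 0.176).

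AOC1, 1 of a small family of allene oxide cyclases, was rare, and its highest counts were in both pho1-7 samples and 1 of pho1-7hpr1-5. It had 4 and 8 reads in pho1-7tex1-4 (0.0713 and 0.0807 CPM), 8 and 47 reads in pho1-7hpr1-5 (0.114 and 0.760 CPM), 42 and 28 reads in pho1-7 (0.693 and 0.438 CPM), and 3 and 6 reads in Col-0 (0.0424 and 0.0904 CPM). Both pho1-7 samples and replicate 2 of pho1-7hpr1-5 were high, and the other 5 pot samples were low, below the 0.154 CPM that the filter on low counts asked for. The log2 fold change was 3.03 in pho1-7 against Col-0 (SE 0.87, adjusted p = 0.0787 in edgeR) and -2.83 in pho1-7tex1-4 against pho1-7 (SE 0.83, adjusted p = 0.0314). Leaving out any 1 of the 4 samples ended the first call, with adjusted p of 0.160 to 0.269. The other lost its call without either pho1-7tex1-4 sample or without pho1-7 replicate 1, with adjusted p of 0.137 at most.

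For pho1-7hpr1-5, the AOC1 calls rested on 1 library. The log2 fold change was 2.64 against Col-0 (SE 0.90, adjusted p = 0.0463 in edgeR) and 2.44 against pho1-7tex1-4 (SE 0.86, adjusted p = 0.0700). Without pho1-7hpr1-5 replicate 2 these were 0.80 (adjusted p = 0.446) and 0.60 (adjusted p = 0.574). The first also lost its call without either Col-0 sample (log2 2.19 and 3.26), and the other without either pho1-7tex1-4 sample (log2 2.37 and 2.55). On plates AOC1 had 4, 29 and 9 reads in tex1-4 and 15, 30 and 13 reads in Col-0, and the groups overlapped.

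AOC2, the neighbouring cyclase gene, showed no difference that passed. It gave 0.2497 and 0.363 CPM in pho1-7tex1-4, 0.171 and 0.453 CPM in pho1-7hpr1-5, 0.412 and 0.2501 CPM in pho1-7, and 0.325 and 0.301 CPM in Col-0, with every mutant group reaching both sides of the Col-0 values. In pho1-7 against Col-0 the 95% interval of its log2 fold change ran from -1.05 to 1.13. On plates, at a higher level, tex1-4 had 5.72, 6.54 and 6.01 CPM and Col-0 5.58, 5.64 and 5.84 CPM. The 95% interval of the log2 fold change on plates ran from -0.15 to 0.27.

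LOX2, the plastid 13-lipoxygenase best known from wounded leaves, was found at a few reads except in single libraries. It had 0 and 17 reads in pho1-7tex1-4, 3 and 116 reads in pho1-7hpr1-5, 45 and 2 reads in pho1-7, and 2 and 3 reads in Col-0. In pho1-7tex1-4 replicate 1 a count of 0 allows up to 0.0535 CPM. Within each mutant group 1 replicate was high and the other was near the Col-0 counts, so the groups overlapped. LOX2 entered the test in pots only through those 3 high libraries.

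The log2 fold change of LOX2 in pho1-7hpr1-5 against Col-0 was 4.59 (SE 1.95, adjusted p = 0.0919 in edgeR), and without pho1-7hpr1-5 replicate 2 it was 0.24 (adjusted p = 0.955). The call was also lost without either Col-0 sample, with DESeq2 (adjusted p = 0.107) and under a replicate block (adjusted p = 0.135). Summed over samples, the read share was 24.8 times that of Col-0 in pho1-7hpr1-5 (exact 95% counting interval 10.3 to 77.6) and 10.3 times in pho1-7 (4.13 to 33.3). In pho1-7tex1-4 it was 3.00 times that of Col-0 (1.06 to 10.4), and on plates it was 0.337 times that of Col-0 in tex1-4 (0.108 to 0.907). Such intervals cover counting error only, not the spread between replicates. On plates LOX2 had 4, 1 and 1 reads in tex1-4 and 8, 5 and 3 reads in Col-0, which overlapped.

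RNA of 14 shoot marker genes, of photosystems and carbon fixation, was summed in each root sample. The sums were 23.5 and 191 CPM in pho1-7tex1-4, 116 and 276 CPM in pho1-7hpr1-5, 233 and 202 CPM in pho1-7, and 133 and 230 CPM in Col-0. At most 1 of the 14 markers was at 0 reads in a pot library, RBCS1B or RBCS2B. The libraries with most LOX2 in each double mutant and in pho1-7 were also those with the higher shoot marker sum of their group, although Col-0 replicate 2, with a sum of 230 CPM, had 3 reads of LOX2 and 0.0904 CPM of AOC1. In every pot comparison 0 shoot markers were called, with 0 at an unadjusted p under 0.05 in edgeR and 0 called by DESeq2, and the part of shoot RNA in the LOX2 and AOC1 results was not tested.

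**Figure D3:**
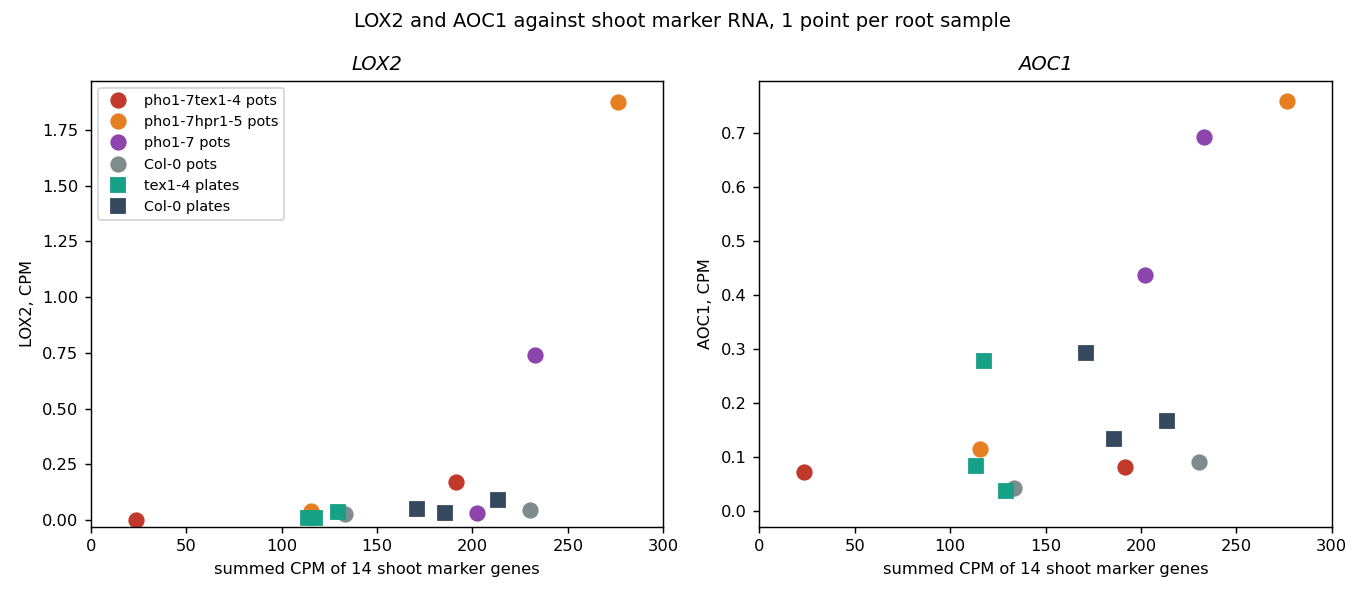
CPM of LOX2 (left) and AOC1 (right) against the summed CPM of 14 shoot marker genes, 1 point per sample, circles for pots and squares for plates. The highest LOX2 and AOC1 values are in pho1-7hpr1-5 replicate 2, which has the largest shoot marker sum (276 CPM), while Col-0 in pots at 230 CPM stays low for both.

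MYC2, the master transcription factor of the response, was lower in pho1-7tex1-4 and did not pass in pho1-7hpr1-5. It gave 109 and 80.2 CPM in pho1-7tex1-4, 139 and 174 CPM in pho1-7hpr1-5, 149 and 127 CPM in pho1-7, and 148 and 128 CPM in Col-0. Both pho1-7tex1-4 samples were below all 6 other pot samples, and those 6 overlapped. In edgeR the RNA fell by 0.54 on the log2 scale against pho1-7 (SE 0.16, adjusted p = 0.0310) and by 0.57 against Col-0 (SE 0.16, adjusted p = 0.0198). Without pho1-7tex1-4 replicate 2 these were -0.34 (adjusted p = 0.165) and -0.37 (adjusted p = 0.107), and without pho1-7 replicate 1 the change against pho1-7 did not pass either. Touch and early wound genes, which respond to handling, were lower in pho1-7tex1-4 against Col-0 as well: 4 of 9 fell and 0 rose (27.5% and 28.3% of all genes), with ZAT12 called (3.82% of all genes). Their sum was 344 and 227 CPM in pho1-7tex1-4, 304 and 410 CPM in pho1-7hpr1-5, 342 and 261 CPM in pho1-7, and 462 and 374 CPM in Col-0. Against pho1-7 the median log2 fold change of the 9 genes was -0.07 in pho1-7tex1-4. In each pot group the sample with more MYC2 had the higher sum, and the part of these genes in the MYC2 result was not tested.

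The direct comparison of the double mutants passed more often. In pho1-7hpr1-5 MYC2 was higher by 0.73 (log2) than in pho1-7tex1-4 (SE 0.16, adjusted p = 0.0134 in edgeR), and it passed with any 1 sample left out, with adjusted p of 0.0634 at most. On plates the direction was the other one. MYC2 gave 80.2, 88.9 and 84.0 CPM in tex1-4 against 74.5, 70.3 and 74.4 CPM in Col-0. All tex1-4 samples were above all Col-0 samples, and the log2 fold change of 0.17 passed (SE 0.06, adjusted p = 0.0646), although it did not under a replicate block (adjusted p = 0.146) or without 4 of the 6 samples in turn (adjusted p of 0.193 at most).

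JAZ1, an early jasmonate-induced repressor of MYC2, was lower in pho1-7hpr1-5. JAZ1 gave 75.2 and 57.9 CPM in pho1-7tex1-4, 41.9 and 60.4 CPM in pho1-7hpr1-5, 86.2 and 71.5 CPM in pho1-7, and 88.4 and 70.6 CPM in Col-0. Both pho1-7hpr1-5 samples were below both pho1-7 samples and both Col-0 samples, and they overlapped with pho1-7tex1-4. In edgeR it fell by 0.61 on the log2 scale against pho1-7 (SE 0.19, adjusted p = 0.0410) and by 0.66 against Col-0 (SE 0.19, adjusted p = 0.0252). Without pho1-7hpr1-5 replicate 1 the changes were -0.40 (adjusted p = 0.178) and -0.44 (adjusted p = 0.115). Replicate 1 of pho1-7 (first comparison, adjusted p = 0.186 without it) and of Col-0 (the other, 0.142 without it) also decided the call. In each pot group the sample with more JAZ1 also had the higher sum of touch and early wound genes. Of these 9 genes, 3 fell at any fold in pho1-7hpr1-5 against Col-0 (26.0% of all genes) and 2 rose against pho1-7 (21.2%), near those shares. However, 2 of the 9 were called lower against Col-0, where 3.81% of all genes were. Their part in the JAZ1 result was not tested. On plates JAZ1 gave 47.6, 52.1 and 50.4 CPM in tex1-4 against 53.9, 60.9 and 53.6 CPM in Col-0. All tex1-4 samples were lower there, at a log2 fold change of -0.20 that did not pass (SE 0.08, adjusted p = 0.107). Without Col-0 replicate 2, the library that stood apart, it was -0.13 (adjusted p = 0.117), and without Col-0 replicate 1 it passed at -0.25 (adjusted p = 0.0883), as it did with DESeq2 (adjusted p = 0.0927).

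JAZ10, a repressor with splice forms that resist jasmonate-induced destruction, was the rarest signalling gene. JAZ10 gave 1.32 and 2.18 CPM in pho1-7tex1-4, 2.01 and 3.72 CPM in pho1-7hpr1-5, 3.61 and 3.00 CPM in pho1-7, and 1.84 and 2.41 CPM in Col-0. Both pho1-7tex1-4 samples were below both pho1-7 samples, and they overlapped with Col-0. It fell by 0.87 (log2) in pho1-7tex1-4 against pho1-7 (SE 0.32, adjusted p = 0.0665 in edgeR), without replicate 1 of pho1-7tex1-4 by 0.58 (adjusted p = 0.268) and without replicate 1 of pho1-7 by 0.72 (adjusted p = 0.246). The change was over 2-fold without replicate 2 of pho1-7tex1-4, at -1.32 (adjusted p = 0.0554), and without replicate 2 of pho1-7, at -1.02 (adjusted p = 0.0871). In each of the 4 pot groups the sample with more JAZ10 had the higher shoot marker sum, and the median log2 fold change of the 11 shoot markers tested was -0.995 in pho1-7tex1-4 against pho1-7, and their part in the JAZ10 result was not tested. JAZ10 gave 1.44, 1.49 and 1.04 CPM in tex1-4 and 1.96, 1.101 and 1.26 CPM in Col-0 on plates, where the groups overlapped.

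VSP1, an acid phosphatase-like storage protein of the wound branch, had the smallest adjusted p of the 10 genes in pho1-7hpr1-5 against Col-0. VSP1 gave 7.44 and 6.67 CPM in pho1-7tex1-4, 3.71 and 4.37 CPM in pho1-7hpr1-5, 6.43 and 8.39 CPM in pho1-7, and 10.8 and 8.997 CPM in Col-0. Both pho1-7hpr1-5 samples were below all 6 other pot samples, and both Col-0 samples were above all others. In pho1-7hpr1-5 VSP1 fell by 1.31 (log2) against Col-0 (SE 0.15, adjusted p = 0.000481 in edgeR), by 0.86 against pho1-7 (SE 0.15, adjusted p = 0.00457) and by 0.80 against pho1-7tex1-4 (SE 0.15, adjusted p = 0.00821). The root marker PYK10, an abundant glucosidase of root ER bodies, was at 1166 and 969 CPM in pho1-7tex1-4, 544 and 571 CPM in pho1-7hpr1-5, 971 and 1115 CPM in pho1-7, and 1711 and 1496 CPM in Col-0. It was the 1 of 10 root markers called lower in pho1-7hpr1-5 against Col-0 (3.81% of all genes), while 1 other rose (25.5% of all genes). The part of PYK10 in the VSP1 result was not tested.

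These 3 falls of VSP1 passed with any 1 sample left out, with adjusted p of 0.00446, 0.0271 and 0.0515 at most, and in every other fit tried. The smaller falls against Col-0 were less firm. In pho1-7tex1-4 the log2 fold change was -0.52 (SE 0.14, adjusted p = 0.0204 in edgeR), with an adjusted p of 0.111 without pho1-7tex1-4 replicate 2 and of 0.109 without Col-0 replicate 1. In pho1-7 it was -0.46 (SE 0.14, adjusted p = 0.0984), and it passed in no fit with a sample left out (adjusted p of 0.102 to 0.355). In pho1-7tex1-4 against pho1-7 VSP1 did not pass, and the 95% interval of the log2 fold change ran from -0.39 to 0.28.

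VSP2, its close relative, had another order of groups in pots. VSP2 gave 15.4 and 23.8 CPM in pho1-7tex1-4, 14.1 and 27.2 CPM in pho1-7hpr1-5, 36.6 and 41.9 CPM in pho1-7, and 15.9 and 26.1 CPM in Col-0. Both pho1-7 samples were above all 6 other pot samples, and those 6 overlapped. In edgeR the log2 fold change was -0.97 in pho1-7tex1-4 against pho1-7 (SE 0.33, adjusted p = 0.0506) and -0.91 in pho1-7hpr1-5 against pho1-7 (SE 0.33, adjusted p = 0.0677). In pho1-7 against Col-0 it was 0.86 (SE 0.33) and did not pass (adjusted p = 0.151), nor with RLE scaling or DESeq2. It passed under a replicate block (adjusted p = 0.0235), with no filter on low counts (0.0664) and in a fit of these groups alone (0.0665). Of the 2 samples in pho1-7tex1-4, pho1-7hpr1-5 and Col-0, the one with less VSP2 had the lower shoot marker sum, which did not hold in pho1-7, and the part of shoot RNA in the VSP2 result was not tested.

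Both falls of VSP2 against pho1-7 hung on single samples. In pho1-7tex1-4 the change did not pass without pho1-7tex1-4 replicate 1 (log2 -0.70), pho1-7 replicate 1 (-1.05) or pho1-7 replicate 2 (-0.89), with adjusted p of 0.231 at most. It was called with DESeq2 (adjusted p = 0.0733) and, in edgeR, under a replicate block (-1.03, adjusted p = 0.00510) or without pho1-7tex1-4 replicate 2 (-1.34, adjusted p = 0.0580). In pho1-7hpr1-5 it did not pass without pho1-7hpr1-5 replicate 1 (-0.54) or either pho1-7 sample (-0.996 and -0.83), with adjusted p of 0.262 at most, nor with DESeq2 (adjusted p = 0.116). Without pho1-7hpr1-5 replicate 2 it was called (-1.42, adjusted p = 0.0266).

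On plates VSP1 and VSP2 were both lower in tex1-4. VSP1 gave 48.9, 57.7 and 59.7 CPM in tex1-4 against 121, 83.5 and 111 CPM in Col-0, and VSP2 gave 13.3, 16.2 and 14.2 CPM in tex1-4 against 47.0, 23.9 and 35.1 CPM in Col-0. For both genes all tex1-4 samples were below all Col-0 samples, and Col-0 replicate 2, the library that stood apart, was the lowest Col-0 sample. In edgeR VSP1 fell by 0.96 on the log2 scale (SE 0.14, adjusted p = 0.00471) and VSP2 fell by 1.31 (SE 0.21, adjusted p = 0.00711). Both passed with any 1 sample left out.

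Without Col-0 replicate 2, VSP1 changed by -1.09 on the log2 scale (adjusted p = 0.000308 in edgeR) and was then called as well, and VSP2 by -1.52 (adjusted p = 0.000305). VSP1 was likewise over 2-fold without tex1-4 replicate 3 (-1.03, adjusted p = 0.0135). Shoot markers moved the same way on plates: the sum of the 14 genes was 129, 118 and 114 CPM in tex1-4 against 213, 171 and 186 CPM in Col-0. Of 11 tested, 8 were lower at an adjusted p under 0.1 in edgeR (19.3% of all genes), with 1 called (LHCB2.1, where 3.09% of all genes were). RBCS1B, RBCS2B and CA1 were the markers at 0 reads in 1 or more plate libraries. PYK10 was at 8942 to 10756 CPM in tex1-4 against 16732 to 17321 CPM in Col-0. The part of these in the VSP1 and VSP2 results was not tested.

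The balance of the VSP pair, looked at after the values were seen, differed between experiments. Reads of VSP2 per read of VSP1 were 2.07 and 3.57 in pho1-7tex1-4, 3.81 and 6.23 in pho1-7hpr1-5, 5.68 and 5.00 in pho1-7, and 1.47 and 2.90 in Col-0 in pots. On plates they were 0.273, 0.281 and 0.238 in tex1-4 against 0.389, 0.287 and 0.315 in Col-0. VSP2 was the more abundant of the pair in all 8 pot samples and VSP1 in all 6 plate samples. The ratio in pho1-7 and in pho1-7hpr1-5 lay above both Col-0 samples in pots, with VSP2 highest in pho1-7 and VSP1 lowest in pho1-7hpr1-5.

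**Figure D4:**
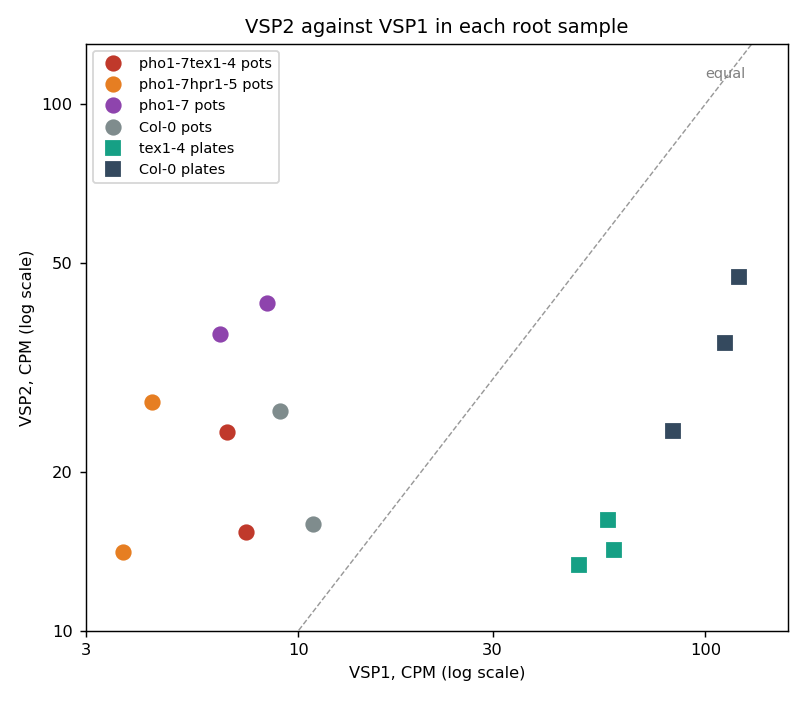
VSP2 against VSP1 in each sample, both in CPM on log axes, circles for pots and squares for plates; the dashed line marks equal CPM. All pot samples lie above the line and all plate samples below it, the pho1-7hpr1-5 samples lie farthest left (3.71 and 4.37 CPM of VSP1), and the tex1-4 samples lie below and left of Col-0 on plates.

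The tex1-4 effect was compared between experiments by the difference of log2 fold changes, tex1-4 over Col-0 on plates minus pho1-7tex1-4 over pho1-7 in pots. Of the 10 genes, 2 passed with a positive difference and 1 with a negative one, where 2.79% and 2.13% of 22667 genes did. None was called (1.81% of all genes were, in either direction), with 3 of 10 at an unadjusted p under 0.05 in edgeR and 0 called by DESeq2. OPR3 differed by 0.53 (SE 0.10, adjusted p = 0.0154 in edgeR), since it fell in pots and did not pass on plates, and MYC2 by 0.72 (SE 0.17, adjusted p = 0.0524), as it fell in pots and rose on plates.

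VSP1 differed by -0.88 (SE 0.22, adjusted p = 0.0547 in edgeR), as it fell on plates and did not pass in pots. The difference of OPR3 passed with any 1 of the 10 samples left out. MYC2 did not pass without 4 of the 10 in turn (adjusted p of 0.239 at most). VSP1 did not pass without 6 of the 10 in turn (0.252 at most), nor under a replicate block (0.104). In the pot pair both lines carried pho1-7 and in the plate pair neither did, so the pho1-7 background cannot be told apart here from substrate, age and library type.

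Outside the 10 genes, 57 genes of the jasmonate pathway were followed in 6 lists: synthesis, catabolism, JAZ repressors, receptor and transcription factors, and the wound and ethylene branches of the response. In pho1-7 against Col-0, 6 of 52 tested rose and 4 fell (5.43% and 8.16% of all genes), and 2 were called higher and 1 lower (0.578% and 1.29%). Over the 6 lists together, the number that fell was near the share over all genes. The lists differed: 3 of 4 ethylene-branch genes tested fell and 0 rose, at a median log2 fold change of -0.91. Of catabolism genes, 3 of 10 rose and 0 fell. Called were JOX4, a jasmonate oxidase, at a log2 fold change of 2.16 (SE 0.57, adjusted p = 0.0613 in edgeR), JAZ9 at 1.16 (SE 0.34, adjusted p = 0.0847) and ORA59, the AP2/ERF factor of the ethylene branch, at -1.73 (SE 0.11, adjusted p = 0.000479). The median log2 fold change of the 52 was 0.08.

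In pho1-7tex1-4 against pho1-7, 2 of 52 rose and 20 fell (24.5% and 21.9% of all genes), with 1 called higher and 6 lower (2.13% and 2.88%), at a median of -0.17 against 0.02 over all genes. Of catabolism genes 7 of 10 fell and of JAZ repressors 5 of 11, where 21.9% of all genes did. TAT3, a tyrosine aminotransferase of the wound branch, fell by 2.79 on the log2 scale (SE 0.43, adjusted p = 0.00304 in edgeR), at 0.62 and 0.90 CPM in pho1-7tex1-4 against 5.56 and 5.35 CPM in pho1-7. JOX4 fell by 3.80 (SE 0.67, adjusted p = 0.00485) and CYP94B1, which hydroxylates jasmonoyl-isoleucine, by 1.26 (SE 0.23, adjusted p = 0.00549). ORA59 rose by 1.22 (SE 0.11, adjusted p = 0.000406), at 6.14 and 5.87 CPM in pho1-7tex1-4 against 2.69 and 2.52 CPM in pho1-7.

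In pho1-7hpr1-5 against pho1-7, 10 of 52 rose and 16 fell (21.2% and 20.0% of all genes), with 1 called higher and 2 lower (2.73% and 2.46%), at a median of -0.06. The number that rose was near the share over all genes. Receptor and transcription factors had 6 of 10 genes higher and 3 lower, and catabolism had 4 of 10 lower and 0 higher. CYP94C1, which oxidises jasmonoyl-isoleucine further, fell by 1.26 on the log2 scale (SE 0.18, adjusted p = 0.00170 in edgeR), at 3.54 and 4.37 CPM in pho1-7hpr1-5 against 11.02 and 8.10 CPM in pho1-7. TAT3 fell by 1.01 (SE 0.39, adjusted p = 0.0827) and JAZ7 rose by 1.05 (SE 0.30, adjusted p = 0.0316).

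**Figure D5:**
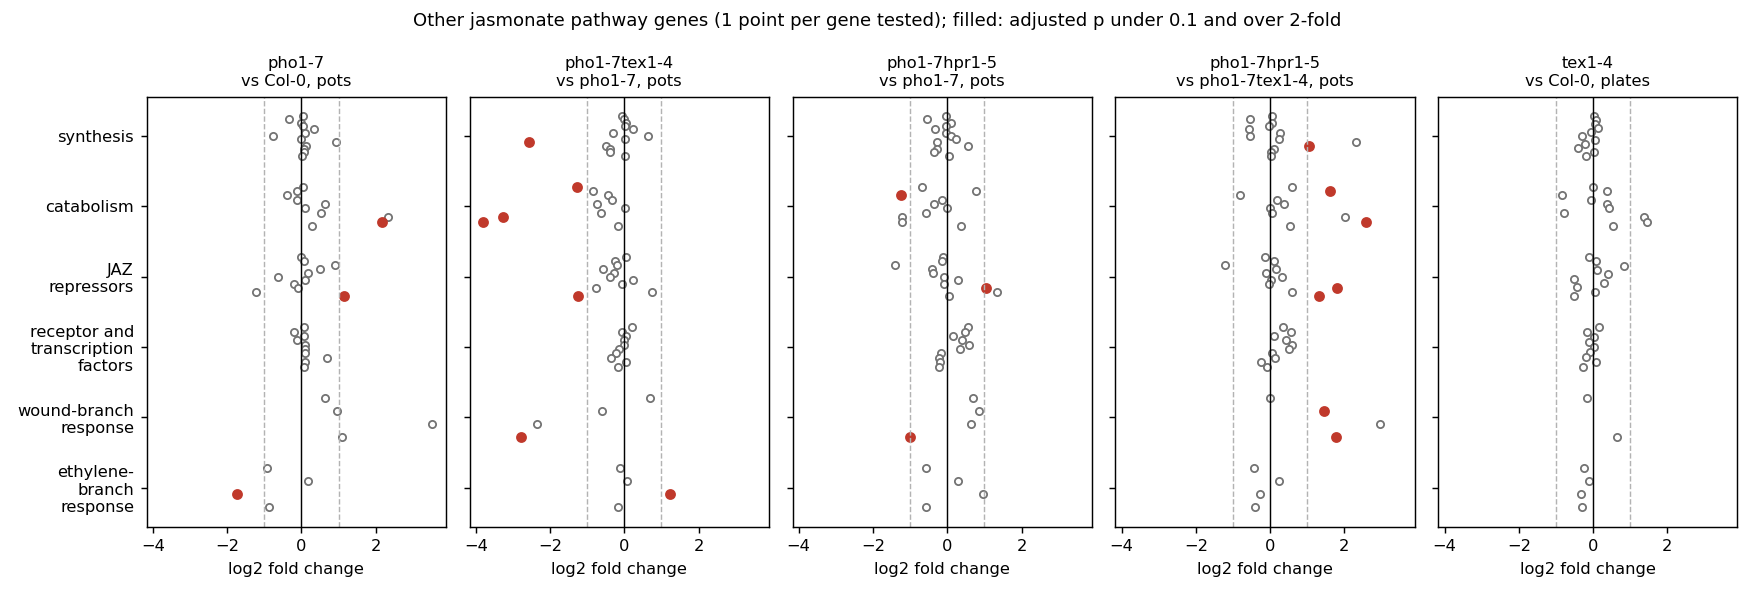
Log2 fold change (edgeR) of each tested gene of 6 jasmonate pathway lists, the 10 genes aside, in 5 comparisons. Filled points were called at an adjusted p under 0.1 and over 2-fold, with dashed lines at 2-fold. In pho1-7tex1-4 against pho1-7, 6 of the 7 called genes lie left of 0, and in pho1-7hpr1-5 against pho1-7tex1-4 all 7 lie right of it.

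Against Col-0, 4 of 52 pathway genes rose and 15 fell in pho1-7tex1-4, where 28.3% and 27.5% of all genes did, with 1 called higher and 5 lower (2.11% and 3.82%). In pho1-7hpr1-5 12 rose and 12 fell, where 25.5% and 26.0% of all genes did, with 3 called each way (3.12% and 3.81%). The 15 and both counts of 12 were near the shares over all genes. PR4 and CHI-B, pathogenesis-related chitin-binding and chitinase proteins of the ethylene branch, were called lower in each, against the same Col-0 samples, PR4 at -1.04 and -1.45 and CHI-B at -1.06 and -1.51 on the log2 scale, pho1-7tex1-4 before pho1-7hpr1-5. PR4 gave 42.6 and 45.5 CPM in pho1-7tex1-4, 34.5 and 31.5 CPM in pho1-7hpr1-5, 59.0 and 41.0 CPM in pho1-7, and 86.2 and 93.2 CPM in Col-0. CHI-B gave, in the same order, 116 and 122, 91.8 and 81.4, 154 and 107, and 234 and 255 CPM. For both genes the pho1-7 samples, of the parent line, were thus also below both Col-0 samples. In pho1-7tex1-4 both genes lay within the range of the pho1-7 samples. The other named calls were JAZ4 at -1.03 and CYP94B1 at -1.22 in pho1-7tex1-4, and CYP94C1 at -1.65 and the NAC factor ANAC055 at 1.79 in pho1-7hpr1-5.

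Between the double mutants, 17 of 52 pathway genes were higher and 7 lower in pho1-7hpr1-5 than in pho1-7tex1-4 (17.5% and 19.3% of all genes), and 7 were called higher and 0 lower, where 2.82% and 1.27% of all genes were (8 lower at an unadjusted p under 0.05 and 0 by DESeq2). ANAC055 differed by 1.45 on the log2 scale (SE 0.18, adjusted p = 0.00126 in edgeR), JAZ7 by 1.80 (SE 0.31, adjusted p = 0.00598), CYP94B3 by 1.60 (SE 0.35, adjusted p = 0.0141) and TAT3 by 1.78 (SE 0.44, adjusted p = 0.0230). Of the 9 touch and early wound genes, 3 were higher and 0 lower in this comparison, with TCH4 and ZAT12 called, and their sums overlapped (304 and 410 CPM in pho1-7hpr1-5 against 344 and 227 CPM in pho1-7tex1-4). Their part in these differences, and in that of MYC2, was not tested.

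On plates, 4 of 46 pathway genes rose and 6 fell in tex1-4, both below the 17.8% and 19.3% of all genes. In either direction 0 were called (2.33% higher and 3.09% lower over all genes), with 13 at an unadjusted p under 0.05 in edgeR and 0 called by DESeq2. These counts include Col-0 replicate 2, the library that stood apart, and were not taken without it. Among Col-0 plate samples it was highest for CYP94B3 (14.1 CPM, against 8.10 and 8.68) and PR4 (443, against 297 and 281). It was lowest for ORA59 (1.25 CPM, against 2.57 and 2.06). The tex1-4 effect differed between plates and pots for 8 of 53 pathway genes, 7 of them with a more positive effect on plates (2.79% of all genes passed as more positive and 2.13% as more negative), and 5 were called (1.81%). They included JOX4 at 5.25, TAT3 at 3.46, ILL6, an amidohydrolase that cleaves jasmonoyl-isoleucine, at 1.12, and ORA59 at -1.54 on the log2 scale. On plates the tex1-4 effect on JOX4, TAT3 and ORA59 did not pass (adjusted p of 0.171, 0.280 and 0.351), and ILL6 rose by 0.37 (adjusted p = 0.0153 in edgeR). JOX4 had few reads, 13, 18 and 13 in tex1-4 against 0, 9 and 5 in Col-0 on plates, and 6 and 5 in pho1-7tex1-4 against 74 and 55 in pho1-7.

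Across the 14 samples, with log2 CPM centred within each experiment, the genes most like the most abundant gene of each role were sought among 20455 genes, as a description. For VSP1 they were IGMT5, an indole glucosinolate methyltransferase (Pearson r = 0.980), NDL2 (0.975) and AT1G34844 (0.973). For MYC2 they were TCH4, a touch-induced cell wall enzyme (0.921), ERF104 (0.914) and AT3G15760 (0.905), and for AOS PIL2 (0.923), STN1 (0.907) and AT3G01850 (0.898). Among 28 pairs of the 8 abundant enough of the 10 genes, r ran from -0.30 for MYC2 with VSP1 to 0.73 for AOS with JAZ1. The points share libraries and groups, so a single library or genotype can set these values.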

How the data were processed

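Roots of 14 samples were sequenced after polyA selection with strand-specific libraries. The authors aligned reads with Hisat2 to TAIR10 and deposited raw HTSeq read counts per gene, with separate counts for regions downstream of genes; tool versions are not given in the sources used here. Reads assigned to no gene (17.1% to 19.6% of each deposited count column) were left out of library sizes. The design calls these samples biological replicates. With 2 or 3 per group, p-values set a difference against the spread between samples. That spread was estimated from all groups in a fit and moderated across genes, not from the 2 groups compared alone.

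Genes were filtered with filterByExpr, scaled by TMM and tested with edgeR 4.0.16 (R 4.3.3), the 8 pot samples in 1 fit and the 6 plate samples in another, and all 14 for the difference of effects, with Benjamini-Hochberg adjustment over all genes tested. Called means an adjusted p under 0.1 and over 2-fold, thresholds that the study set for ratios of downstream to gene reads and that are applied here to gene counts. The script was tested on simulated data. Alternatives were RLE scaling, no filter, DESeq2 1.42.0, other thresholds, a replicate block, fits of only the groups compared, and leaving out each sample. The downstream regions could not be tested since 0 of the 10 genes have one.

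The 10 genes and all lists were chosen with earlier results of these data known. Described were all 10, and per comparison up to 4 called list genes with the smallest adjusted p. Similar genes were those with the 3 highest r to the most abundant gene of each role, over genes above a mean of 0.5 CPM, on log2(CPM + 0.1). All 100 listed identifiers matched RefSeq, from which sequences and gene models (TAIR10.1) were read.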

Additional observations from a re-analysis of the deposited data

Results flagged for a closer look

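For 3 of the 10 genes the effect of tex1-4 differed between plates (tex1-4 over Col-0) and pots (pho1-7tex1-4 over pho1-7) in a direct test of the difference in edgeR. OPR3 differed by 0.53 on the log2 scale (SE 0.10, adjusted p = 0.0154), with the same direction in each of the fits that left out 1 sample (0.46 to 0.59). MYC2 differed by 0.72 (SE 0.17, adjusted p = 0.0524), and it is the 1 gene of the set that passed in opposite directions, -0.54 in pots and 0.17 on plates. VSP1 differed by -0.88 (SE 0.22, adjusted p = 0.0547), with 7.44 and 6.67 CPM in pho1-7tex1-4 against 6.43 and 8.39 CPM in pho1-7, and 48.9 to 59.7 CPM in tex1-4 against 83.5 to 121 CPM in Col-0 on plates. The pho1-7 background, substrate, plant age and library type differ together between the pairs and cannot be told apart.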

How the results depend on the processing

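Fold changes of the 10 genes were followed under the alternatives only at an unadjusted p under 0.05 in the main edgeR fit, which left 33. No direction was reversed among them, which is no independent check, as they were picked by p in the same data. In 284 refits they kept their side of the call thresholds, in 18 a call was lost and in 11 one was gained. Keeping that side is not passing the test. AOS in pho1-7hpr1-5 against pho1-7tex1-4 kept it in all 9 alternatives, at log2 -0.29 to -0.26 with a sample left out. It did not pass with RLE scaling, no filter or DESeq2.

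Counts of calls moved most with the fold threshold. With none, the genes called numbered 2986 (pho1-7 against Col-0), 10202 (pho1-7tex1-4 against pho1-7), 9050 (pho1-7hpr1-5 against pho1-7), 12261 (pho1-7tex1-4 against Col-0), 11318 (pho1-7hpr1-5 against Col-0), 8082 (pho1-7hpr1-5 against pho1-7tex1-4), 8091 (tex1-4 against Col-0, plates) and 1115 (difference of effects), and the members called 3, 5, 5, 2, 6, 4, 3 and 3. Main counts were 411, 1102, 1140, 1304, 1522, 898, 1179 and 411 genes, and 1, 1, 0, 0, 3, 1, 1 and 0 members. At an adjusted p under 0.05, 0 members were called in pho1-7 against Col-0 and between the double mutants. With only the groups compared in the fit, 1 was called in pho1-7hpr1-5 against Col-0 and 0 between the double mutants, since LOX2 and AOC1 then did not pass the filter on low counts.

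Leaving out 1 sample in turn gave, in the same order, 252 to 421, 881 to 1300, 1059 to 1186, 1043 to 1455, 1356 to 1654, 783 to 912, 881 to 1317 and 210 to 648 genes, and 0 to 0, 0 to 2, 0 to 2, 0 to 0, 1 to 3, 0 to 3, 1 to 2 and 0 to 1 members.

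Replicate numbers gave no pairing of the same sign throughout: deviations of same-numbered samples correlated at -0.32 to 0.32 in pots and at 0.13, -0.24 and -0.02 on plates. With 2 samples per pot group, a pairing with crossed numbers would give a negative value, so these correlations do not settle whether pot samples were paired. With the replicate block, 2 members were called in pho1-7tex1-4 against pho1-7, as with DESeq2. With numbers crossed, an alternative added after seeing the data, 2 were called in pho1-7 against Col-0.

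LOX2, AOC1 and, in pots, AOC2 have few reads, and small differences in them were not detectable at this depth. No extension ratio was tested, for lack of a member with an extension.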
